A study of Homo sapiens with 6 samples.

Results

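The 9 genes described here encode AP-1 transcription factors: JUN, JUNB, JUND, FOS, FOSB, FOSL1, FOSL2, ATF3 and BATF3. They were chosen as a family, from among 20007 protein-coding genes of GENCODE 44. Their open chromatin was read from 6 lists of ATAC-seq peaks by taking every peak that overlapped the gene body or lay within 10 kb of either end. Of 154926, 115694, 340558, 292030, 67558 and 73484 peaks in naïve 1, naïve 2, R1 1, R1 2, R2 1 and R2 2, 103, 77, 150, 138, 48 and 50 were near a member.

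AP-1 is a dimer of basic leucine zipper proteins. JUN proteins pair with each other or with FOS proteins, whereas FOS proteins need a JUN partner, and the dimer binds a palindrome known as the TPA response element (TRE). ATF3 and BATF3 can pair with JUN proteins, and dimers that hold an ATF protein prefer the longer cyclic AMP response element (CRE). Many of these genes are immediate early genes, which growth factors and stress switch on through kinases that act on factors already bound at their promoters.

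The study measured chromatin accessibility by ATAC-seq, in which the Tn5 transposase cuts and tags open DNA. The cells were SK-N-AS, a neuroblastoma cell line, after growth as xenografts in mice. Naïve cells came from xenograft tissue treated with vehicle. R1 and R2 cells came from xenografts treated with indisulam, a compound that brings the splicing factor RBM39 to the DCAF15 ubiquitin ligase, and these tumors were harvested under the drug, in the third cycle, after they had relapsed for the second time. In all 3 groups the tumors were digested, the adherent cells were expanded in culture, and the cultured cells themselves received no treatment. Each group has 2 libraries of 100000 cells. How many tumors each cell type derives from is not stated for these libraries, so a difference between naïve, R1 and R2 cells that belongs to a tumor cannot be told apart from one that belongs to the drug. Whether the 2 libraries of a group are separate cultures is not stated, so p-values measure only the spread between these libraries, which may be technical.

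The libraries differed in depth, and this bears on every value below. The background rate, recovered from each list as tags expected at a position, was 2.29 and 1.35 in the naïve libraries, 7.94 and 5.43 in the R1 libraries, and 0.850 and 0.899 in the R2 libraries. The lowest pileup called a peak was 9, 7, 18, 14, 6 and 6 tags in the same order. R1 was the deepest group in both of its libraries, so that a count of peaks and the cell type cannot be told apart. A peak at the gene start was present in all 6 libraries for 4 of 6 adrenergic neuroblastoma markers, among them HAND2 and GATA3, and for 4 of 6 mesenchymal markers, among them PRRX1 and TWIST1. None of 4 lymphocyte, 3 epithelial and 3 endothelial markers had one in all 6, and PTPRC, CD3E and TEK had one in none.

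Sequence of the open regions is given first, to show where those that hold an element bound by AP-1 or by serum response factor hold it. Stretches are from hg38, written 5′ to 3′ along the strand of the gene, with the matched element in capitals. Elements were searched on both strands in the 30 regions near the members that had a peak in all 6 libraries: the TRE as TGANTCA, the CRE as TGACGTCA, its variant TGACATCA, and the CArG box, the binding sequence of serum response factor. A match is a description of these letters and no evidence of binding. The positions given for elements and summits are in bp from the canonical transcript start, negative upstream.

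The first set shows open regions at and upstream of the JUN family starts. The JUN stretch, chr1:58784075-58784146 on the minus strand, holds the variant element at -63, and the JUND stretch, chr19:18281783-18281854 on the minus strand, holds a CRE at -196. The JUNB stretch with a CArG box at -1534 is chr19:12789916-12789989 on the plus strand. Another JUNB stretch, chr19:12783025-12783189 on the plus strand, holds 3 TREs at -8426, -8362 and -8332.
JUN: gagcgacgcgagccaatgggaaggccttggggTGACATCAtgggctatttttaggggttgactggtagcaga
JUND: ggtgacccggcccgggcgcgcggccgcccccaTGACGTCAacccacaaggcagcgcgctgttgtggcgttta
JUNB CArG: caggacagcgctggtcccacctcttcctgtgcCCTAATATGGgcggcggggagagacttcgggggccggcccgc
JUNB TRE: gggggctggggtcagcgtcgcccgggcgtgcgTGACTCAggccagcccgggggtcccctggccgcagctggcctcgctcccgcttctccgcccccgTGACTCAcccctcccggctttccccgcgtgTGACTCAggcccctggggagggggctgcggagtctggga

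The next set shows starts of the FOS family. The FOS stretch, chr14:75278482-75278555 on the plus strand, holds a CArG box at -310, and the FOSB stretch, chr19:45467639-45467763 on the plus strand, holds a CRE at -322 and a CArG box at -270. The FOSL1 stretch, chr11:65900372-65900400 on the minus strand, holds a TRE at the transcript start itself, at 2. The FOSL2 stretch, chr2:28392830-28392878 on the plus strand, holds a TRE at 7.
FOS: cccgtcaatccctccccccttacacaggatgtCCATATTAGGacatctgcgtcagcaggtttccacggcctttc
FOSB: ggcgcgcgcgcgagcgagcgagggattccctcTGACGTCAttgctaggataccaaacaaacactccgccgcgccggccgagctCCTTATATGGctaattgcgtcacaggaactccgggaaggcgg
FOSL1: cacggcgcgggTGAGTCAgaacccagcag
FOSL2: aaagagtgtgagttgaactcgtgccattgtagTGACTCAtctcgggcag

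The last set shows 2 regions far upstream of the canonical ATF3 start, both on the plus strand. The first, chr1:212558995-212559103, lies outside the gene body and holds a TRE at -49731 and a CRE at -49694. The other, chr1:212567219-212567289, lies within the annotated gene body, upstream of the canonical transcript, and holds a TRE at -41507.
ATF3 distal: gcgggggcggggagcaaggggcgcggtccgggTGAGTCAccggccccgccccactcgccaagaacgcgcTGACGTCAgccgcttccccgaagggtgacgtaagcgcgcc
ATF3 upstream: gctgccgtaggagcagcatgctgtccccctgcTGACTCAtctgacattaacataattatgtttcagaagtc

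The summits lay on some of these elements and away from others. In the 6 libraries the summit was 6 to 19 bp from the TRE of the distal ATF3 stretch and 9 to 25 bp from the TRE of the other. The FOSB summit was 22 to 40 bp from the CRE in 5 libraries, and in R1 1 a single wide peak put its summit inside the gene. At FOS the CArG box was 10 bp from the summit in R2 1, whereas it lay at -279 and -258 bp from it in naïve 1 and R1 2. The FOSL1 TRE was 111 to 180 bp downstream of the summit in all 6 libraries.

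Among the 30 regions, 8 held a TRE, 3 a CRE, 2 the variant and 3 a CArG box. Over all 32646 regions with a peak in every library the shares were 16.2%, 1.96%, 2.14% and 1.57%, and the regions near members were wider, at a mean of 861 against 737 bp. RefSeq promoter windows on hg38, from 250 bases before to 50 after the start, were matched for 7 of the 9 members. A TRE was found in the window of 1 of them, a CRE in 1, the variant in 2 and a CArG box in 0, where 7.71%, 1.85%, 2.61% and 1.29% of 35116 windows held them.

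All 9 members were open at their start in every library. A peak within 1 kb of the canonical start was found for 9 of 9 in all 6 lists, as it was for 54.7% of protein-coding genes. The quantity set side by side next is the percentile rank of the best peak near each gene, by -log10 p within its own list. It depends on how long the list is, so it is a description, and an exact permutation test of 2 against 2 libraries cannot fall below p = 0.333.

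ATF3, a stress-induced repressor and activator, had the highest ranked peak of the family in each library, at percentile 99.8 and 99.6 in naïve, 99.8 and 99.6 in R1, and 99.1 and 99.2 in R2 cells. The JUN peak ranked at 99.2, 99.0, 99.4, 99.3, 98.0 and 97.4 in the order naïve, R1, R2. BATF3, a partner of JUN proteins best known from dendritic cells, was the lowest of the 9 in each library, at 93.8, 88.0, 95.8, 95.4, 74.6 and 69.1. For each of these 3 genes the lowest values were those of the R2 libraries, whose lists were the shortest.

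FOS was below JUN in every library, with 94.6, 95.1, 96.2, 96.6, 82.2 and 85.2. Protein-coding genes were then ranked by their best peak in the same library, with genes that lacked a peak counted as below. FOS stood above 59.3% and 68.8% of all genes in naïve, 40.7% and 49.0% in R1, and 49.6% and 52.2% in R2 cells. ATF3 stood above 93.5% to 98.5% of all genes in the 6 libraries. Among genes with a peak the median percentile was 94.2 and 92.6 in naïve, 97.5 and 97.1 in R1, and 88.3 and 88.9 in R2. FOS was above that median in both naïve libraries and below it in the R1 and R2 libraries. These best peaks were not the same region. In naïve 1, naïve 2 and R1 2 the summit lay upstream, at -1719, -1683 and -1729, and elsewhere it was near the start. At its start FOS ranked at 90.6, 86.1, 96.2, 95.5, 82.2 and 60.5 in the order naïve, R1, R2. The medians of genes with a start peak were higher, at 91.4, 89.5, 96.8, 96.2, 84.7 and 85.2.

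The other members fell between these. The best peaks were at percentiles from 92.0 to 99.3 for JUNB, 95.5 to 99.4 for JUND, 93.7 to 98.1 for FOSB, 97.3 to 99.3 for FOSL1 and 90.2 to 99.2 for FOSL2. The best peak in the FOSL1 window was not its own, but lay at the starts of the neighbouring genes CCDC85B or FIBP. Over the 54 values of 9 genes in 6 libraries the median percentile was 98.0.

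**Figure D1:**
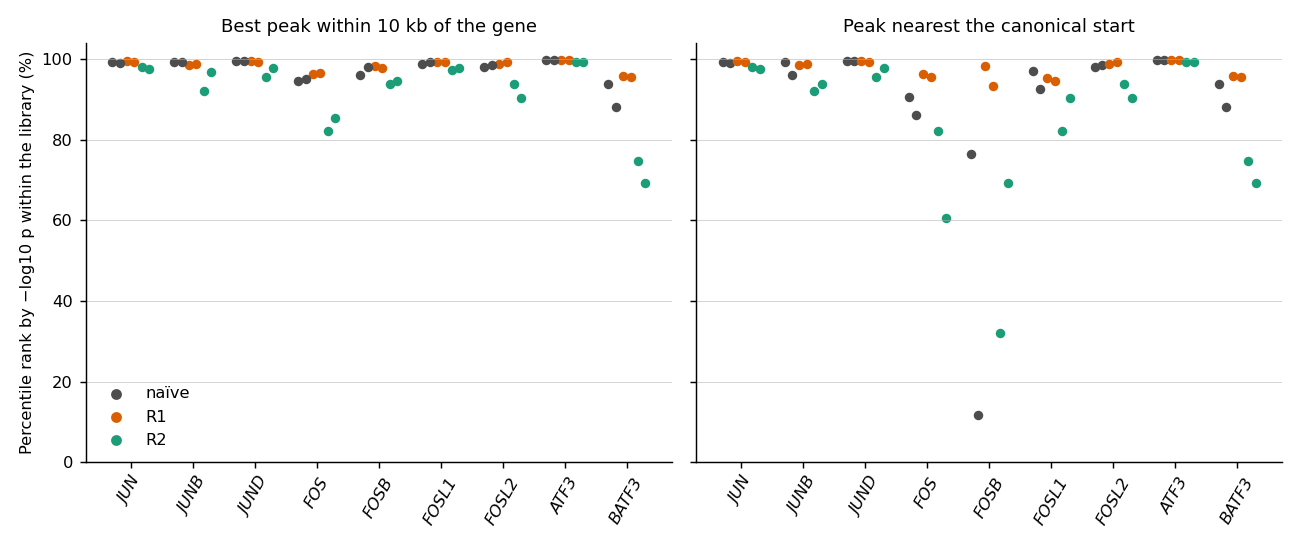
Percentile rank of -log10 p within each library (vertical axis, %) for the best peak within 10 kb of each gene (left) and for the peak nearest the canonical start (right), with a point for each of the 6 libraries. ATF3 stays between 99.1 and 99.8 in both panels. The FOSB start peak spreads from 11.7 to 98.1, where the peak nearest the start was not the same in each library.

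At the starts the spread was widest for FOSB. Its start peak ranked at percentile 76.5 and 11.7 in naïve, 98.1 and 93.2 in R1, and 32 and 69.1 in R2 cells. The value of 98.1 in R1 1 belongs to a wide peak whose summit was at 1278 and so is not the height at the start. In naïve 2 and R2 1 the nearest peak was 200 bp wide with 9 tags, its summit at -20 and 286. The start region described below took 13 and 10 tags from other peaks in these libraries. The percentiles are therefore not all of the same peak. FOSB is an immediate early gene whose strongest open region in every library was not at the start but inside the gene, in an intron, at 1278.

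Peaks held by a single cell type were few outside R1. Of 113 member peaks present in both R1 libraries, 39 overlapped no peak of the other 4, and the best ranked of them reached percentile 81.2. Over the whole lists 51.2% of the peaks present in both R1 libraries were without a counterpart, a larger share than near the members. Of 35 peaks present in both R2 libraries, 0 were without a counterpart, and all 35 were found in all 6, where 0.395% and 88.4% of all such R2 peaks were. The naïve libraries shared 55, of which 1, near JUNB, was without a counterpart and ranked at percentile 52.1, against 0.827% of all such naïve peaks. When each list was limited to its best 20000 peaks, the members held 26, 31, 21, 23, 24 and 24 in the order of the libraries above. Peaks tied at this limit were all kept, so a list could hold more than 20000. In R2 1, 14724 distal peaks were kept in this way, against 11784 with ties cut at 20000.

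**Figure D2:**
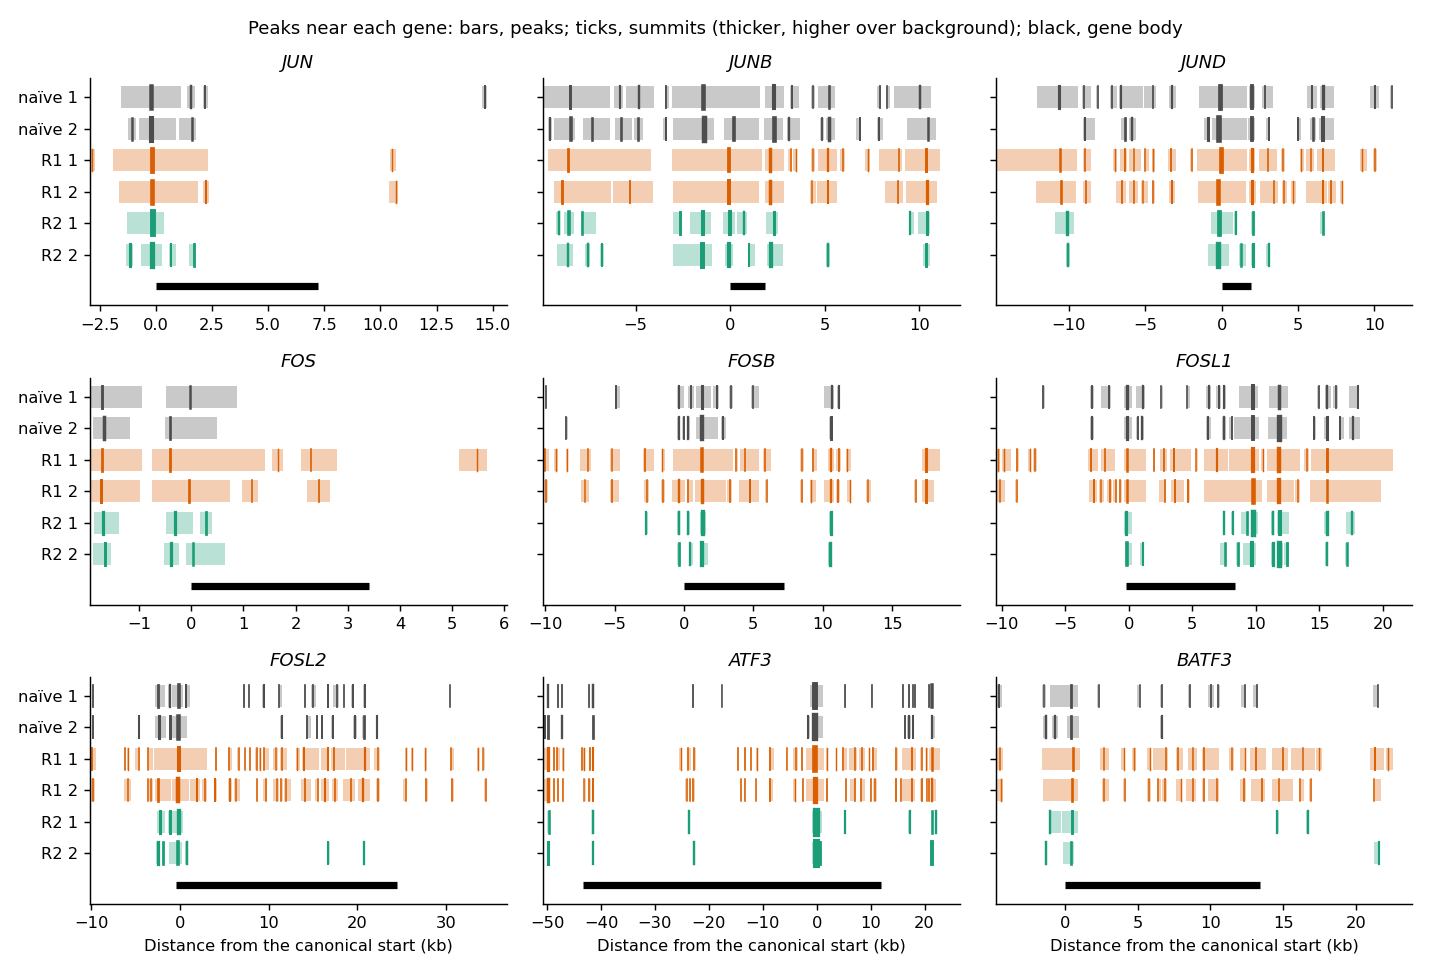
Peaks near each of the 9 genes against distance from the canonical start (kb, along the gene's strand), with a row for each library, bars for peaks and ticks for summits drawn thicker where the pileup over background is higher. The R1 rows are the fullest, with 150 and 138 peaks, and every gene has a peak at its start in all 6 rows.

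To compare heights, the summit pileup was used in regions with a peak in all 6 libraries, as log2 values made comparable by quantile normalization and tested with limma over all 32646 regions, with Benjamini-Hochberg adjustment and a threshold of 0.05. Each member had a region at its start among the 30. The values given per library are the summit pileup divided by the background rate of that library, which is a ratio. The ratio and the tested value can order groups differently, because a called peak has a higher floor of the ratio in a shallow library, where 6 tags against a rate of 0.850 made a peak in R2 1 and 18 against 7.94 in R1 1. A second scale took from each region the median of the other shared regions within 1 Mb in the same library. This locally centred scale sets a gene against its neighbourhood and was used because JUNB and JUND lie in the first 20 Mb of chromosome 19.

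Near the members, R1 was below naïve in 3 of 30 regions and above it in 0, against 5.34% lower and 5.39% higher of all regions. At an unadjusted p under 0.05 there were 9 lower and 0 higher, against 13.5% and 12.8% of all regions. The 3 were the FOSL1 start, a region upstream of JUNB and a region at the end of JUND. With local centring, limma called 1 lower and 1 higher, against 2.81% and 3.19% of all regions, with 4 and 3 at an unadjusted p under 0.05, where 10.1% and 9.94% of all regions stood. R2 against naïve gave 0 calls by limma in either direction, against 2.66% higher and 2.92% lower of all regions, with 0 higher and 4 lower at an unadjusted p under 0.05, against 12.3% and 11.4%. The locally centred comparison of R2 with naïve gave 0 as well, against 0.631% higher and 1.45% lower, with 2 in each direction at an unadjusted p under 0.05, against 8.91% and 8.82%.

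R2 was above R1 in 2 of the 30 regions and below it in 0, against 7.3% higher and 7.21% lower of all regions, with 6 and 1 at an unadjusted p under 0.05, against 15.4% and 13.8%. The locally centred scale left 1 higher and 0 lower, against 4.99% and 5.89%, with 4 and 1 at an unadjusted p under 0.05, against 13.7% and 13.3%. R1 and R2 were each compared with the same naïve libraries, so the 2 comparisons are not independent.

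FOSL1, which encodes FRA-1, a FOS protein without the transactivation domain of FOS that is often high in mesenchymal and invasive tumor cells, was the only member whose start region passed the test. The gene is on chr11:65892049-65900573, on the minus strand, and its start region is chr11:65900110-65900736, around the canonical start. The pileup over background was 18.4 and 17.0 in naïve, 12.0 and 12.0 in R1, and 17.6 and 21.1 in R2 cells. Both R1 libraries were lower than each of the other 4, and the naïve and R2 values overlapped.

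The log2 difference of R1 from naïve at the FOSL1 start was -0.80 (SE 0.21, 95% interval -1.28 to -0.33, adjusted p = 0.0446 by limma), and that of R2 from R1 was 0.75 (SE 0.21, interval 0.27 to 1.22, adjusted p = 0.0473). R2 differed from naïve by -0.06, with an interval of -0.54 to 0.42 (adjusted p = 0.895). Against its neighbourhood, on the locally centred scale, R1 was lower than naïve by -1.19 (SE 0.22, adjusted p = 0.0156) and R2 was higher than R1 by 1.06 (SE 0.22, adjusted p = 0.0173). The 167 other shared regions within 1 Mb had a median difference of 0.20 between R1 and naïve, and 2 of them were lower than FOSL1.

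The FOSL1 call is close to the threshold. For R1 against naïve, the adjusted p was 0.137 without naïve 1, 0.0746 without naïve 2, 0.283 without R1 1 and 0.250 without R1 2, and the difference stayed between -0.95 and -0.67. For R2 against R1 it was 0.273 without R1 1, 0.249 without R1 2, 0.0599 without R2 1 and 0.117 without R2 2. The locally centred call of R1 against naïve was likewise lost without any naïve or R1 library, at adjusted p from 0.0562 to 0.139, and that of R2 against R1 without R1 1, R1 2 or R2 2, at 0.141, 0.125 and 0.0624. With only regions whose summits agreed within 250 bp in all libraries, the adjusted p was 0.0535 for R1 against naïve and 0.194 for R2 against R1, and 0.0376 and 0.164 locally centred. With naïve peaks as anchors the R2 against R1 values were 0.116 and 0.0513.

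Among the other 29 regions, 6 lay in the FOSL1 window and belonged to CTSW, FIBP and CCDC85B or the 3′ part of FOSL1. None of them was called in a comparison on either scale. The lowest adjusted p by limma was 0.0635, for a region between FIBP and CCDC85B that was lower in R2 than in naïve cells. That difference was -1.20 on the locally centred scale. In the naïve and R1 libraries this region took the same values as the FIBP start region, so they are upper bounds here. Of 10619 protein-coding genes with a start region, the 2 whose pattern over the 6 libraries was nearest to that of FOSL1 were LGALS3BP on chromosome 17, which encodes a secreted glycoprotein, and CDH11 on chromosome 16, a mesenchymal cadherin. Their Euclidean distances in centred log2 pileup were 0.12 and 0.14, against a median of 1.08 over genes.

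**Figure D3:**
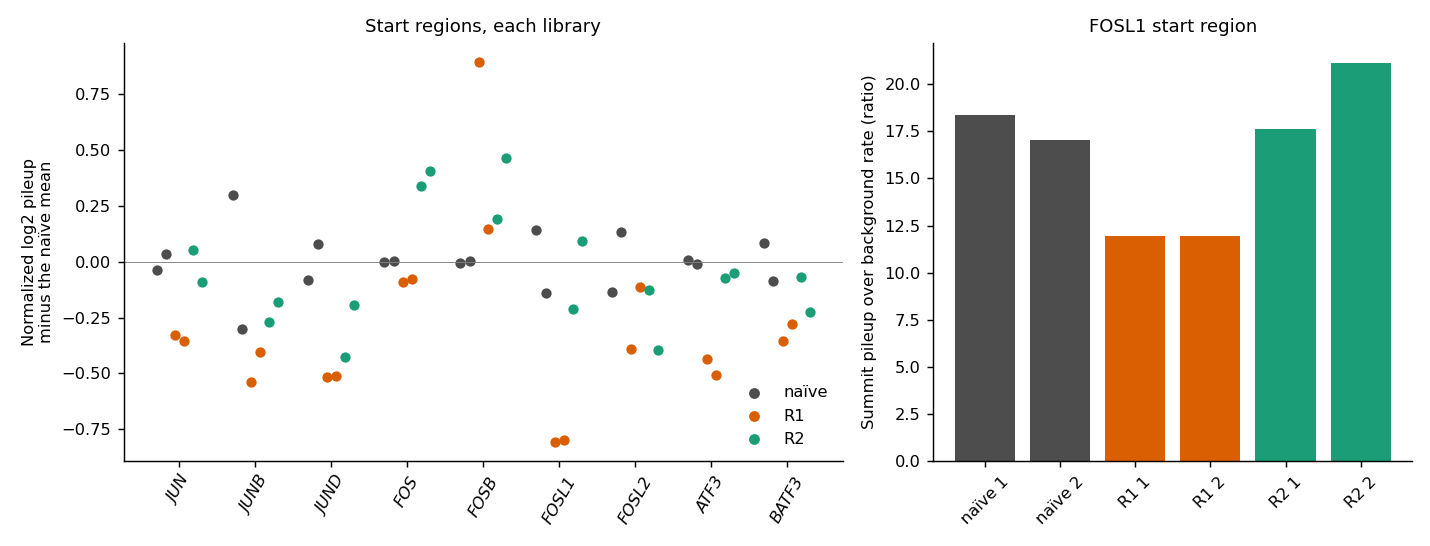
Left, normalized log2 pileup of each member's start region minus the naïve mean, with a point for each library. Right, summit pileup over the background rate (a ratio) at the FOSL1 start, where the R1 bars stand at 12.0 and 12.0 and the other 4 between 17.0 and 21.1.

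The JUN family gave no call at a start. JUN, the founding member, lies on chr1:58776845-58784048 on the minus strand as a gene without introns, with a start region at chr1:58783665-58785366. Its pileup over background was 28.4 and 33.3 in naïve, 31.0 and 29.4 in R1, and 40.0 and 34.5 in R2 cells. The R2 values were the highest, and the naïve and R1 values overlapped. R1 differed from naïve by -0.34 (adjusted p = 0.199) and R2 by -0.02 (adjusted p = 0.957) on the tested scale. The 9 other shared regions within 1 Mb had a median difference of -0.44 between R1 and naïve.

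JUNB, a JUN protein that can restrain JUN, lies on chr19:12791486-12793315 on the plus strand. The start region, chr19:12791119-12791729, had a pileup over background of 29.3 and 21.5 in naïve, 22.5 and 23.9 in R1, and 24.7 and 25.6 in R2 cells. Naïve 1 took its value from a summit at -1443, so that 29.3 is an upper bound at the start. R1 differed from naïve by -0.47 (adjusted p = 0.219), and the groups overlapped. The difference was -0.17 without naïve 1 and -0.77 without naïve 2 (adjusted p = 0.584 and 0.0695). With naïve peaks as anchors it was -0.83 and passed (adjusted p = 0.0181), where the naïve peak that served as anchor joined the start to the upstream region described next.

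The region upstream of JUNB, chr19:12788467-12790523 with a median summit at -1424, had values of 29.3 and 36.3 in naïve, 22.5 and 23.9 in R1, and 24.7 and 32.3 in R2 cells. Both R1 libraries were below both naïve ones. In R1 a single wide peak spanned this region and the start and had its summit at the start, so that the R1 values are upper bounds here. The difference of R1 from naïve was -0.85 (SE 0.19, adjusted p = 0.0266 by limma). It was not called on the locally centred scale, at -0.24 (adjusted p = 0.586). It was also not called without naïve 1, naïve 2, R1 1 or R1 2, at adjusted p of 0.0736, 0.114, 0.185 and 0.104.

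The neighbours of JUNB moved in the same direction. Of 76 other shared regions within 1 Mb, 73 were lower in R1 than in naïve, with a median of -0.65, and 69 were lower in R2, with a median of -0.47. Of the nearest genes with a shared start region, GET3, which inserts tail-anchored proteins into membranes, differed in R1 by -0.91 (adjusted p = 0.0172) and HOOK2, a microtubule adaptor, by -0.51 (adjusted p = 0.353). The region at the start of PRDX2, a peroxiredoxin, and of THSD8 differed by 0.25 (adjusted p = 0.459). This last region fell within 10 kb of JUNB and was the 1 region higher in R1 on the locally centred scale, by 0.87 (SE 0.21, adjusted p = 0.0447). That call was lost without naïve 1, naïve 2, R1 1 or R1 2, at adjusted p of 0.0897, 0.136, 0.245 and 0.384.

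JUND, the JUN protein that is expressed most steadily, lies on chr19:18279694-18281622 on the minus strand and has no intron. Its start region, chr19:18280902-18282520, had a pileup over background of 30.6 and 37.7 in naïve, 30.3 and 29.3 in R1, and 30.6 and 35.6 in R2 cells. R1 differed from naïve by -0.51 (adjusted p = 0.0828) and R2 by -0.31 (adjusted p = 0.289). Locally centred, the differences were -0.01 and 0.23, with adjusted p of 0.985 and 0.540.

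The region at the 3′ end of JUND, chr19:18279447-18279713, had values of 23.2 and 22.9 in naïve, 17.5 and 17.1 in R1, and 14.1 and 16.7 in R2 cells. Both naïve libraries were above all 4 resistant ones. R1 was lower by -0.75 (SE 0.20, adjusted p = 0.0462 by limma), and R2 differed by -0.79 (SE 0.20, adjusted p = 0.0565). The R1 call was lost without naïve 1, naïve 2, R1 1 or R1 2, at adjusted p of 0.133, 0.0944, 0.292 and 0.242, and also with summits within 250 bp (0.0645) and with percentiles in place of pileups (0.0872). Locally centred, both differences were -0.25, with adjusted p of 0.551 and 0.553.

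As at JUNB, the shift was shared by the neighbourhood of JUND. Of 151 other shared regions within 1 Mb, 139 were lower in R1, with a median of -0.54, and 128 were lower in R2, with a median of -0.44. The nearest genes on one side, MPV17L2 and RAB3A, differed between R1 and naïve by -0.77 and -0.77 (adjusted p = 0.0268 and 0.0172). LSM4 and PGPEP1 on the other side differed by -0.59 and -0.64 (adjusted p = 0.113 and 0.222).

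**Figure D4:**
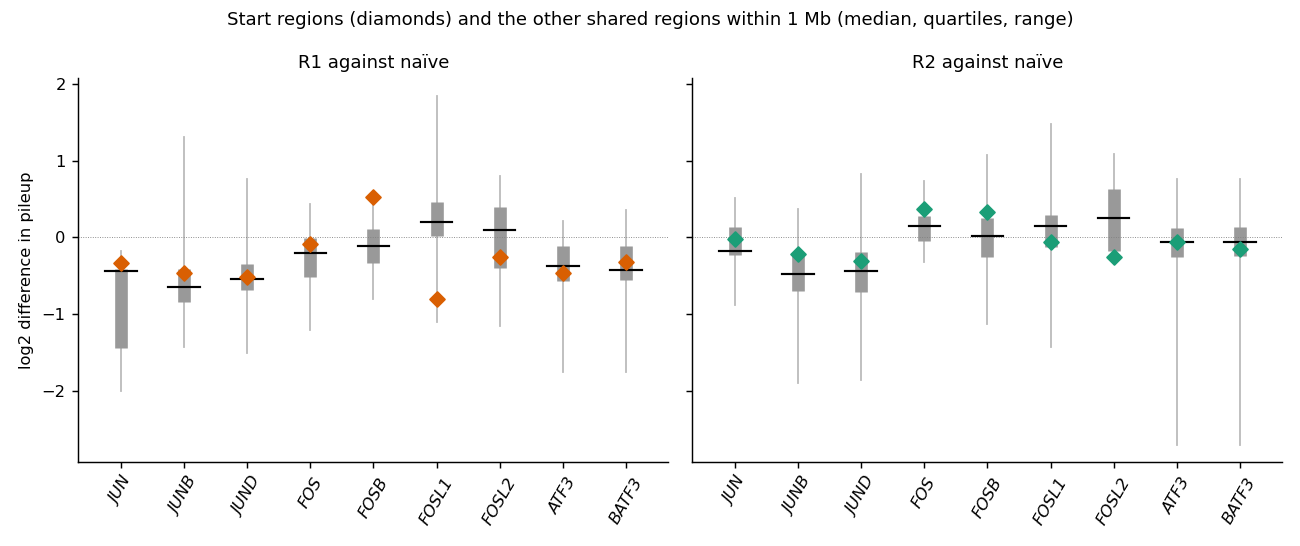
Difference in log2 pileup of each member's start region (diamonds) and of the other shared regions within 1 Mb (line, range; bar, quartiles; black mark, median), for R1 against naïve (left) and R2 against naïve (right). JUNB at -0.47 and JUND at -0.51 sit inside their neighbours' quartiles in the left panel, and FOSL1 at -0.80 sits far below a neighbour median of 0.20.

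Of the FOS family, FOS itself lies on chr14:75278826-75282230 on the plus strand, with a start region at chr14:75278306-75279474. Its pileup over background was 11.8 and 13.3 in naïve, 14.0 and 13.6 in R1, and 17.6 and 17.8 in R2 cells. The R2 libraries were above the other 4, but R2 differed from naïve by 0.37 (interval -0.06 to 0.81, adjusted p = 0.274) and from R1 by 0.46 (adjusted p = 0.150), which did not pass.

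FOSB lies on chr19:45467995-45475179 on the plus strand, far from the first 20 Mb of that chromosome. The start region, chr19:45467462-45467812, had values of 8.31 and 9.62 in naïve, 20.5 and 10.7 in R1, and 11.8 and 13.4 in R2 cells, where 20.5 is again the value of the wide peak. R1 differed from naïve by 0.52 (interval -0.10 to 1.14, adjusted p = 0.265), and 0.14 remained without R1 1. The intronic region chr19:45469119-45469751 was higher, with values from 16.6 to 27.4 over the 6 libraries, and was called in no comparison on either scale.

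A region downstream of FOSB, chr19:45478382-45478730 with a median summit at 10618, was the second that differed between R2 and R1. Its pileup over background was 9.62 and 15.5 in naïve, 10.1 and 9.75 in R1, and 17.6 and 18.9 in R2 cells. The R2 libraries were above all the others, and naïve 2 was nearer to R2 while naïve 1 was at the level of R1. R2 was higher than R1 by 0.91 (SE 0.24, interval 0.36 to 1.45, adjusted p = 0.0379 by limma) and by 0.84 on the locally centred scale, which did not pass (adjusted p = 0.0674). The first of these calls was lost without R1 1, R1 2, R2 1 or R2 2, at adjusted p of 0.209, 0.204, 0.0927 and 0.116, and also with summits within 250 bp (0.146), naïve anchors (0.0834) and percentiles (0.0553).

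FOSL2, which encodes FRA-2, lies on chr2:28392448-28417317 on the plus strand. At its start, chr2:28391550-28393168, the values were 21.4 and 28.9 in naïve, 24.6 and 28.2 in R1, and 27.0 and 21.1 in R2 cells, so that all groups overlapped. R1 differed from naïve by -0.25 (interval -0.70 to 0.20, adjusted p = 0.461) and R2 by -0.26 (interval -0.71 to 0.19, adjusted p = 0.465).

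ATF3 and BATF3 are neighbours on the long arm of chromosome 1, at chr1:212565334-212620777 on the plus strand and chr1:212686417-212699840 on the minus strand. The ATF3 start region, chr1:212607871-212609668, had the highest pileup over background among the members in every library, at 40.2 and 43.7 in naïve, 38.3 and 35 in R1, and 51.7 and 50.1 in R2 cells. By this ratio R1 was lowest and R2 highest, without overlap. The differences did not pass, at -0.47 for R1 against naïve (adjusted p = 0.0599) and 0.41 for R2 against R1 (adjusted p = 0.0778). Set against their neighbours these were 0.06 (adjusted p = 0.897) and 0.08 (adjusted p = 0.804).

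The 2 upstream ATF3 regions printed above went different ways. The region with a TRE at -41507, chr1:212567130-212567434, had values of 11.4 and 13.3 in naïve, 8.31 and 7.18 in R1, and 11.8 and 10.0 in R2 cells. R1 was below the other 4 libraries, and its difference from naïve was -0.71 (adjusted p = 0.0607). The region with both elements, chr1:212558783-212559208, had 10.5 and 14.1 in naïve, 18 and 20.1 in R1, and 12.9 and 16.7 in R2 cells. Here R1 was above the other 4 libraries, with a difference from naïve of 0.36 (adjusted p = 0.376), or 0.84 on the locally centred scale (adjusted p = 0.0948).

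The BATF3 start had the narrowest range of pileup over background among the members, but not the narrowest range of the tested value. At chr1:212698933-212700022 the values were 14.0 and 14.1 in naïve, 13.0 and 13.4 in R1, and 15.3 and 13.4 in R2 cells. The median summit was inside the gene at 454, R1 differed from naïve by -0.32 (interval -0.77 to 0.14, adjusted p = 0.351), and R2 differed by -0.15 (interval -0.60 to 0.31, adjusted p = 0.701).

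Over the 9 starts together, 8 were below 0 for R1 against naïve, with a median of -0.34, where the median of all regions was -0.03 and that of 9483 gene-start regions was 0.03. The count was 7 with naïve anchors, and 8 with median centring and with each library left out. On the locally centred scale 4 of 9 were below 0 and the median was 0.03, and the count ran from 3 to 6 as libraries were left out. The median over the starts was -0.06 for R2 against naïve and 0.25 for R2 against R1.

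Other genes of the pathway were read the same way, from lists of genes rather than from how they moved. As a background, of 9483 gene-start regions 4.48% were higher and 2.70% lower in R1 than in naïve, 2.45% higher and 0.675% lower in R2 than in naïve, and 3.10% higher and 1.69% lower in R2 than in R1. Of 17 upstream kinases and factors, 16 had one. In R1, 0 were higher and 2 lower than in naïve. They were SRF, the serum response factor that binds the CArG box, by -0.996 (adjusted p = 0.0163), and MAP2K7, a kinase that activates JNK, by -0.68 (adjusted p = 0.0343). In R2, 1 was higher than in naïve, MAP2K4, another activator of JNK, by 1.01 (adjusted p = 0.0432). SRF was higher in R2 than in R1 by 1.26 (adjusted p = 0.00471), the only call of its list in that comparison.

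All 11 immediate early and feedback genes had a start region. In R1, 1 was higher and 1 lower than in naïve: IER3, an early response gene, by 0.82 (adjusted p = 0.0473), and IER2, another, by -0.96 (adjusted p = 0.0324). In R2, 1 was higher, SPRY2, an inhibitor of growth factor signalling, by 1.17 (adjusted p = 0.0149). Of 14 textbook targets, 7 had a start region, and 1 was called: VIM, the intermediate filament vimentin, which was lower in R1 than in naïve by -0.88 (adjusted p = 0.0373) and higher in R2 than in R1 by 0.81 (adjusted p = 0.0406). No other gene of these 3 lists was called by limma. After local centring none of SRF, MAP2K7, IER2 and IER3 was called by limma, and MAP2K4, SPRY2 and VIM had too few neighbours to be centred. MAP2K7 and IER2 lie on chromosome 19. These calls were not repeated without single libraries.

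The element that AP-1 dimers bind was then counted at open regions away from gene starts. This comparison was added after the data had been seen. Among the distal peaks of the best 20000 in each list, a TRE lay within 50 bp of the summit in 13.4% and 9.0% in the naïve, 3.90% and 3.65% in the R1, and 7.55% and 7.39% in the R2 libraries. The R1 shares were the lowest and the naïve shares the highest, without overlap between groups. Within 100 bp of the summit the shares were 20.6%, 14.4%, 6.74%, 6.53%, 12.4% and 12.6%, in the same order. The R1 lists come from the deepest libraries, so depth and cell type cannot be told apart here. The deeper naïve library had a higher share than the other, and a higher one than the shallower R2 libraries. The R1 peaks were also wider, averaging 2959 and 2659 bp, against 1519 and 1139 in naïve and 596 and 638 in R2. GC content around their summits was 64.0% and 64.1%, against 61.4% and 63.0% in naïve and 61.3% and 61.3% in R2. The part of depth, peak width and GC content in these shares was not tested.

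The same regions can be followed through all libraries. Of the shared distal regions, 1618 held a TRE within 50 bp of the summit in naïve 1 and 20762 did not. With a TRE, 28.4% were lower in R1 than in naïve and 1.85% higher, and the median difference was -0.50. Without it, 4.89% were lower and 5.81% higher, with a median of -0.05. Locally centred, 20.3% with and 2.47% without a TRE were lower. Between R2 and naïve the shares lower were 4.70% with and 3.32% without a TRE, and between R2 and R1 the shares higher were 26.4% and 8.01%.

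Regions with a TRE had a lower GC content around the summit, at a median of 58.4% against 64.4%. Within quartiles of GC content, from lowest to highest, the shares lower in R1 were 35.6%, 24.4%, 18.3% and 14.8% with a TRE, and 10.0%, 3.76%, 2.98% and 2.65% without. The median log2 pileup with minus without a TRE was 0.34 and 0.08 in naïve, -0.27 and -0.30 in R1, and 0.16 and 0.20 in R2 cells. The R1 libraries were alone below 0. The other elements gave smaller numbers of regions: 5.97% of 67 with a CRE, 7.84% of 102 with the variant and 11.5% of 52 with a CArG box were lower in R1.

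The share of regions with a TRE called lower in R1 depended on the libraries. It was 10.0% without naïve 1, 13.8% without naïve 2, 5.32% without R1 1 and 6.49% without R1 2, where 1.5%, 1.59%, 0.674% and 1.18% of regions without a TRE were called. The median difference of the regions with a TRE stayed between -0.60 and -0.45 as each library was left out. These regions are not replicates, and the shares carry no test.

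**Figure D5:**
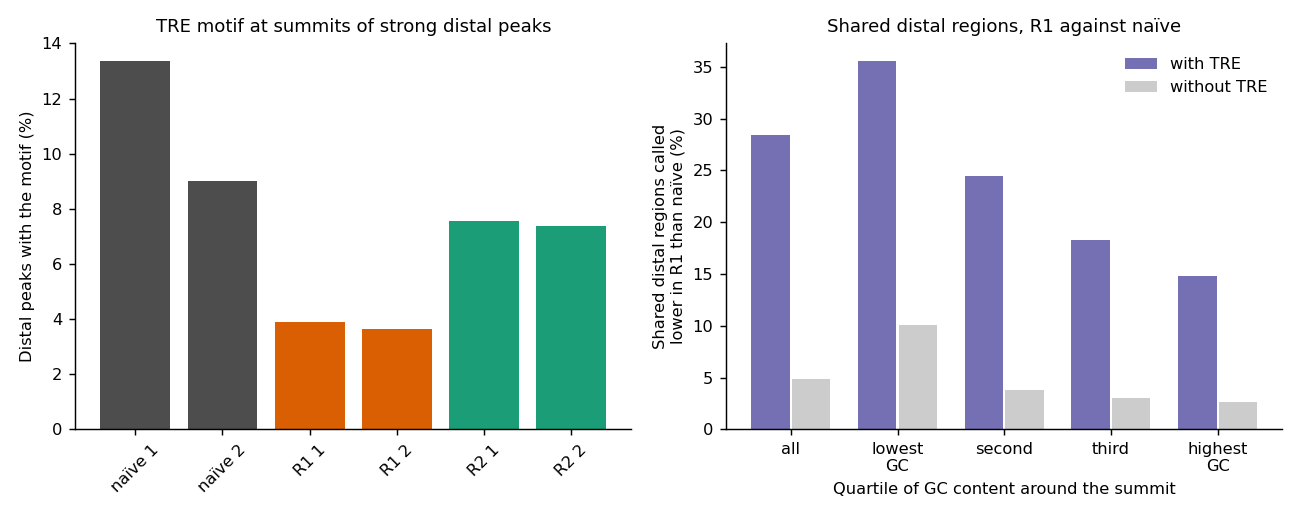
Left, share (%) of distal peaks among the best 20000 with a TRE within 50 bp of the summit, for each library, from 13.4 in naïve 1 to 3.65 in R1 2. Right, share (%) of shared distal regions called lower in R1 than in naïve, with and without a TRE, over all regions (28.4 against 4.89) and by quartile of GC content.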

How the data were processed

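ATAC-seq libraries were made from 100000 cells of each of 3 cell types, 2 libraries each. According to the submitters' processing notes, the authors used BWA 0.7.12-r1039, Picard 1.65, SAMtools 1.3.1, MACS2 2.2.7.1 and bedtools 2.25.0, and called peaks for each library separately at a q of 0.01. The methods name hg19, whereas the notes also name hg38 and the peaks fit the lengths of hg38 chromosomes, so hg38 with GENCODE 44 was used. For each peak the authors deposited its fold over the local expectation (a ratio), and p-values and q-values written as -log10, from MACS2.

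From the fold and p the whole-number summit pileup and the background rate of each library were recovered. Where a wide peak spans several regions, its 1 summit gives the value of each. Regions were merged R2 peaks with a peak in all 6 lists, tested with limma 3.58.1 in R 4.3.3 (log2 pileup, quantile normalization, 3 groups, Benjamini-Hochberg over all regions). Local centring used the median of at least 5 other regions within 1 Mb. The test was run on simulated data first. Analyses used Python 3.11.15, pandas 2.3.3 and pysam 0.24.0.

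The members, lists and motifs were chosen with earlier results of these data known. Named were all members, the 2 nearest genes with a shared start region on either side of JUNB and JUND, the 2 called genes of each pathway list with the largest difference in each comparison (the list of other AP-1 partners is not reported here), and the 2 genes nearest in pattern to a called member. Alternatives were a replicate block, stricter summit agreement, naïve anchors, other scalings and windows, and leaving out each library.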

Additional observations from a re-analysis of the deposited data

Results flagged for a closer look

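At 2 regions the difference of R1 from naïve and that of R2 from the same naïve libraries were unequal, by the test of R2 against R1. At the FOSL1 start R2 was higher than R1 by 0.75 on the log2 scale (adjusted p = 0.0473 by limma), with R1 at -0.80 and R2 at -0.06 against naïve. At the region downstream of FOSB, with its summit at 10618 bp, R2 was higher than R1 by 0.91 (adjusted p = 0.0379), with R1 at -0.47 and R2 at 0.44 against naïve. Depth differed between R1 and R2 as well, and its part in either result was not tested.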

How the results depend on the processing

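No called value changed sign. Of 95 alternative values of counts and shares, 54 counted as unchanged, being within 1.5 times or 0 in both. The 4 percentile values among them were instead judged by the spread between replicates. Of 673 alternative values of single regions, 45 lost the call, 6 gained one and 622 counted as unchanged. An uncalled value could change sign and still count as unchanged. The JUN start for R2 against naïve, for example, ran from -0.19 to 0.11. The number of member regions called for R1 against naïve, 3, was 0 with summits within 250 bp and 5 with naïve peaks as anchors. For R2 against naïve it was 0, and 1 with the replicate block, with summits within 250 bp, with median centring and with only the upper-ranked regions. For R2 against R1 it was 2, and 0 with summits within 250 bp, 0 with naïve anchors and 1 with percentiles in place of pileups. After local centring the R2 against R1 count of 1 became 0 with summits within 250 bp and 0 with naïve anchors. The cause was not tested. Median centring moved the share of calls that were higher in R2 than in naïve, over all regions, from 47.7% to 58.8%, and local centring moved it to 30.4%. Over all regions it also raised the number called lower in R1 than in naïve from 1744 to 2893 under median centring. The shares of regions with a TRE given below are to be read beside this, since those without a TRE are not given for each setting.

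Leaving out each library in turn gave 0 to 5 calls for R1 against naïve, 0 to 3 for R2 against R1, 0 to 2 for R1 against naïve locally centred and 0 to 2 for R2 against R1 locally centred. The R1 against naïve count was 0 without either naïve or either R1 library, and with 1 library the group is assumed to vary like the others. The share of distal regions with a TRE called lower in R1 ranged from 5.32% to 31.5% in the same way, and was 20.3% locally centred and from 28.8% to 41.2% with the remaining settings tried.

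Replicate numbers did not pair the libraries: same-numbered libraries had correlations of deviations of 0.0156 for naïve and R1, -0.0109 for naïve and R2, and 0.00151 for R1 and R2 over 32646 regions. With the replicate block, 2 regions were called for R1 against naïve, both near JUNB, 1 for R2 against naïve and 2 for R2 against R1. Locally centred, the block gave 1 for R1 against naïve, 1 for R2 against naïve and 1 for R2 against R1. At the FOSL1 start the blocked adjusted p was 0.0577 for R1 against naïve and 0.0615 for R2 against R1, and 0.0167 and 0.0187 locally centred.

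The number of peaks near members had a mean of 90 in naïve, 144 in R1 and 49 in R2. With the best 50000 peaks, all ties kept, it was 48.5 in naïve and 33.5 in R1, and the R2 libraries held 41 and 44. R1 then had the fewest and no longer the most. With windows of 50 kb the means were 313.5, 442.5 and 149.5. Depth limits the R2 lists most, where 6 tags made a peak, and a region without an R2 peak could not be compared here. All values are of summits, so a change in the shape of a region was not seen.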
